A study of Mus musculus with 7 samples.

Results

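Peaks of the POU-domain transcription factors Oct1 (gene Pou2f1) and Oct4 (gene Pou5f1) were examined at 46 genes of the Wnt and R-spondin pathway, out of 21887 protein-coding genes, in mouse embryonic stem cells (ESCs) and in ESCs differentiated toward mesoderm. The 46 genes were listed by their place in the pathway and not by a limit on their peaks. Earlier results of these data were known when the genes were chosen. They comprise 6 Wnt ligands, 4 R-spondins, 12 Frizzled and Lrp receptors, 3 Lgr receptors, 8 intracellular parts, 5 nuclear factors (the Tcf/Lef factors and Sp5) and 8 antagonists. A gene was counted in a list when a peak overlapped its body or the 10 kb on each side (mm10, GRCm38). By that rule 41 of the 46 genes held a peak in at least 1 of 4 lists.

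Wnt ligands bind a Frizzled receptor together with Lrp5 or Lrp6. Dishevelled proteins (Dvl) then restrain the complex of Axin, Apc and Gsk3b that otherwise marks beta-catenin (Ctnnb1) for degradation, and stabilised beta-catenin acts in the nucleus with Tcf/Lef factors. R-spondins bind Lgr receptors and the ubiquitin ligases Znrf3 and Rnf43, which remove Frizzled receptors from the cell surface, and so raise the response to Wnt. In the early embryo Wnt3 is needed to form the primitive streak and mesoderm, and Rspo3 protein is used in culture to push ESCs toward paraxial mesoderm.

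The series assayed binding by ChIP-seq (immunoprecipitation of cross-linked chromatin, then sequencing of its DNA) in 7 samples, all of the parental genotype. The 4 peak lists are Oct1 in ESCs, Oct4 in ESCs, and Oct1 at day 3 and at day 6 of differentiation, with the same Oct1 antibody given for the 3 Oct1 libraries; the other 3 samples are inputs, and no peak list of theirs was used. Differentiation ran through Bmp4 for 2 days, followed by LDN-193189 (which blocks BMP type I receptors) and Rspo3 for 4, so an R-spondin is part of the protocol itself. Each group is 1 library, so no difference between lists has a replicate check, no p-value is given, and gene expression was not measured here.

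The lists held 17709 peaks (Oct1, ESC), 22817 (Oct4, ESC), 4867 (Oct1, day 3) and 7758 (Oct1, day 6). Each peak carries a whole-number score of the authors, with no unit stated in the sources used here, and its median was 106, 143, 194 and 508 in that order. Scores are therefore read as ranks within a list: rank 1 is the highest score, and the percentile is the share of the list's peaks that score lower, ties counted by their midpoint. Numbers of peaks depend on how long each list is.

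Promoter sequences are shown first for 4 genes that frame what the lists hold. Lgr4 and Sfrp2 are the members whose RefSeq promoter window holds an exact octamer, ATGCAAAT (ATTTGCAT on the other strand), the sequence that both factors are known to bind. Fzd5 has only a near match and Tcf7l2 has none, and each of the 4 windows overlaps Oct1 peaks of at least 2 lists. The 4 were picked from 8 promoters after their motifs were seen. Bases before the annotated start are printed along the gene's own strand (RefSeq, GRCm38.p6), at chr2:109917397-109917646 (+) for Lgr4, chr3:83766071-83766320 (+) for Sfrp2, chr1:64737751-64738000 (-) for Fzd5 and chr19:55741560-55741809 (+) for Tcf7l2. Capitals mark the octamer or 8 bases that differ from it by at most 1 substitution, on either strand.
Lgr4: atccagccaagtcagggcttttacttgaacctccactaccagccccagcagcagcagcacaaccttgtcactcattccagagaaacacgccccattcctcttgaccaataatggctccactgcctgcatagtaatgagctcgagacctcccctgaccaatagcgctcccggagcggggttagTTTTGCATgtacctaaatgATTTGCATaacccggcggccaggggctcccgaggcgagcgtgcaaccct
Sfrp2: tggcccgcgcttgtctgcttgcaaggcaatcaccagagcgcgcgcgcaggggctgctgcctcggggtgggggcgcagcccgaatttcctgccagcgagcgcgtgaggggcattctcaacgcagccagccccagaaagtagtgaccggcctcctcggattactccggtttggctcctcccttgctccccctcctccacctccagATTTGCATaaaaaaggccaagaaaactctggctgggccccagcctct
Fzd5: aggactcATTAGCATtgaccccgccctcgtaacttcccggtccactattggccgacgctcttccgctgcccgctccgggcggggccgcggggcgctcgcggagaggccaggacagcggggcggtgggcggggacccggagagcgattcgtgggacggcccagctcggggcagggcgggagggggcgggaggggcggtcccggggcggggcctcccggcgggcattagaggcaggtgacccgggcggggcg
Tcf7l2: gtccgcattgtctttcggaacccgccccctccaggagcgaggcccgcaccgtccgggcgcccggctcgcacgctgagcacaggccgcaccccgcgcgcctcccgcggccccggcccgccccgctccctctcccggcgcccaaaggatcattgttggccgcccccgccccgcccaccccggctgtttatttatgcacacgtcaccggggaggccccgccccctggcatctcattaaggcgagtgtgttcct

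The octamer of Lgr4 began 49 bases before the start and that of Sfrp2 47 bases before it. Both read ATTTGCAT along the gene's strand. Lgr4 had a second, near match (TTTTGCAT) 68 bases before the start, and the near match of Fzd5 (ATTAGCAT) stood 243 bases before it. Across all 32851 RefSeq windows of 300 bases, 570 (1.74%) held the exact octamer on either strand, and 2 of the 40 windows of members did. With at most 1 substitution allowed, 18.6% of all windows and 5 of the 40 (12.5%) held a match. The longer POU dimer sequences named MORE and PORE (PORE contains the octamer) were in 0.00913% and 0.00609% of all windows and in none of the 40. These are matches of letters in a window and are not evidence of a bound site.

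Members held peaks more often than the average protein-coding gene in every list. In ESCs, 25 of the 46 had an Oct1 peak (54.3%, against 35.2% of all genes) and 30 had an Oct4 peak (65.2%, against 40.2%). At day 3, 20 had an Oct1 peak (43.5%, against 24.6%), and at day 6, 29 did (63.0%, against 41.5%). Only 5 members (10.9%) had no peak in any list, against 36.5% of all genes: Dkk1, Fzd1, Rspo2, Rspo3 and Wnt5a. Another 59 genes of the Wnt pathway gave shares of 55.9%, 66.1%, 33.9% and 54.2% in the same order.

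**Figure D1:**
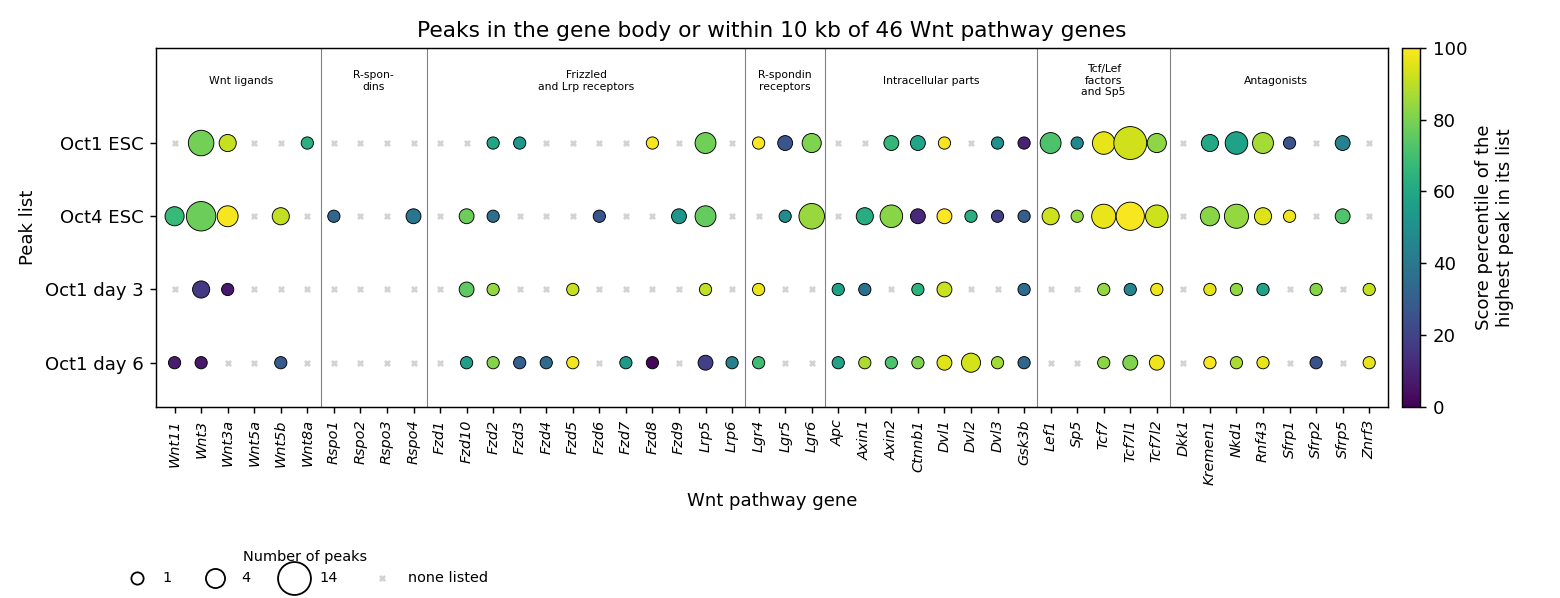
Peaks at the 46 Wnt pathway genes (x axis, grouped by role) in the 4 lists (y axis). Circle size is the number of peaks, colour is the score percentile of the highest one, and a grey cross means none listed; Tcf7l1 carries 14 Oct1 peaks in ESCs, and the R-spondin columns hold no Oct1 peak.

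The members are long genes, with a median length of 34906 bp against 17169 bp for all genes, and a longer gene offers more room for a peak. The counts were therefore also read within classes of length, chosen after the data were seen. Of the 14 members up to 10 kb long, 5 (Oct1, ESC), 6 (Oct4, ESC), 4 (day 3) and 8 (day 6) had a peak, against 23.5%, 28.6%, 18.4% and 30.8% of all genes of that class. Of the 13 members of 10 to 50 kb, 8, 12, 5 and 7 had one, against 39.0%, 44.1%, 26.9% and 47.4%. Of the 19 members over 50 kb, 12, 12, 11 and 14 had one, against 47.1%, 51.7%, 30.4% and 47.9%. The members' share was above that of their class in each of these comparisons, by 1 gene or so in some of them, and the widest gap was in the middle class for Oct4 (92.3%). Chromosome 11 carried 9 of the 46 (19.6%, against 7.35% of all genes). Among the 37 members elsewhere, 18, 22, 13 and 21 had a peak, against 33.5%, 38.3%, 23.3% and 40.4% of all genes off that chromosome.

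High-scoring peaks were few, and counted by gene they were found at members more often than at all genes. This count also rises with gene length and with the number of peaks at a gene. It was not read within classes of length, and the part of length and peak number in it was not tested. For Oct1 in ESCs it therefore does not show that the peaks at members scored higher. A peak in the highest 10% of scores lay at 6 members for Oct1 in ESCs (7.31% of all genes, 13.0% of members), namely Dvl1, Fzd8, Lgr4, Tcf7, Tcf7l1 and Wnt3a. For Oct4 the count was 9 (19.6%, against 7.91%), with Lef1, Rnf43, Sfrp1, Tcf7l2 and Wnt5b beside Dvl1, Tcf7, Tcf7l1 and Wnt3a. At day 3 it was 7 (15.2%, against 3.04%), and these were Dvl1, Fzd5, Kremen1, Lgr4, Lrp5, Tcf7l2 and Znrf3. At day 6 it was 7 (15.2%, against 5.56%), with Dvl2 and Rnf43 in place of Lgr4 and Lrp5. The median percentile of each member's highest peak was 66.1, 77.7, 82.6 and 71.5 over the 4 lists, against 69.7, 67.2, 59.2 and 59.6 over all genes with a peak. By this median the members stood above all genes in 3 of the 4 lists and slightly below them for Oct1 in ESCs. The 59 other genes of the pathway had a peak in the highest 10% in 5.08%, 13.6%, 3.39% and 8.47% of cases.

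The position of the peaks differed between ESCs and differentiating cells. In ESCs the peak midpoint lay a median of 9335 bp (Oct1) and 9241 bp (Oct4) from the nearer end of the member gene, against 624 bp at day 3 and 493 bp at day 6. Counted by gene, 6 members had an Oct1 midpoint within 1 kb of an end in ESCs (13.0%, against 8.52% of all genes) and 2 had an Oct4 midpoint there (4.35%, against 8.91%). At day 3 there were 12 (26.1%, against 14.0%), and at day 6 there were 21 (45.7%, against 29.5%). Counted by peak, the ESC shares were 7.41% for Oct1 (against 12.3% at all genes) and 1.89% for Oct4 (against 9.59%). At day 3 and day 6 they were 54.2% and 58.3%, against 48.1% and 56.4%. For Oct1 in ESCs the members were thus above all genes by gene and below them by peak. All genes showed the same shift of position, with medians of 7884, 7781, 1274 and 452 bp, so it is not particular to the pathway. The 2 members with an Oct4 midpoint within 1 kb of an end were Axin2 and Dvl1, and both of those sites lie toward the far end of the gene.

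**Figure D2:**
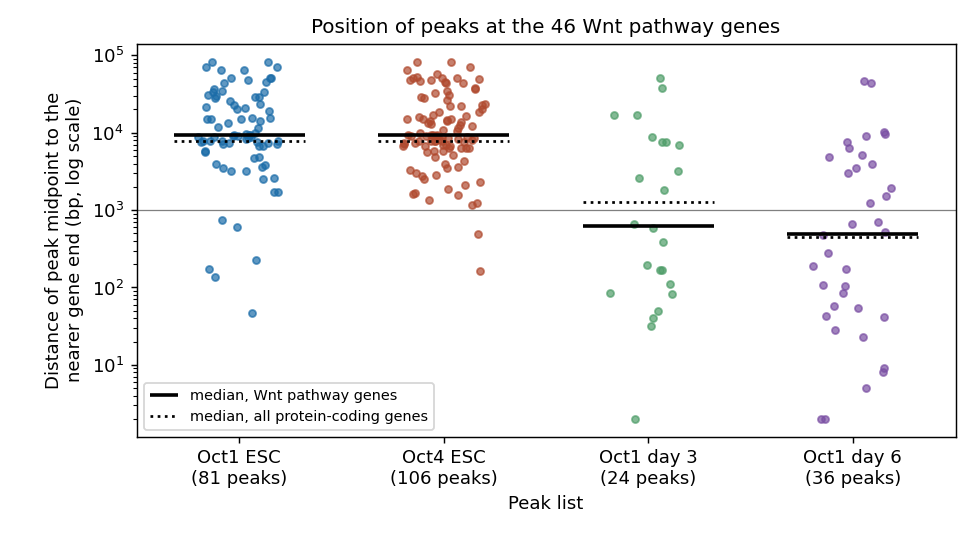
Distance of each peak midpoint to the nearer end of its Wnt pathway gene (y axis, bp, log scale) in the 4 lists (x axis). Each point is a peak, solid lines are medians over members and dotted lines medians over all protein-coding genes; most points of the ESC lists lie above the 1 kb line, and 21 of the 36 day 6 points lie below it.

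Where RefSeq gives a start, the promoter itself was examined, from 250 bases before to 50 after it, for 30 members and 17492 genes. An Oct1 peak overlapped this window at 2 members in ESCs (Lgr4 and Tcf7l2, against 5.81% of genes), at 8 on day 3 (26.7%, against 14.1%) and at 15 on day 6 (against 31.0%). An Oct4 peak overlapped 1, that of Nkd1 (3.33%, against 4.18%). The 40 windows of these 30 members, with and without a peak, were rich in G and C, with a median of 67.0% against 52.7% for all windows, and held a median of 23.5 CpG against 7. All windows here means the 32851 of 27025 symbols, which were not limited to the 17492 protein-coding genes. The part of base composition in the counts at day 3 and day 6 was not tested.

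Members fell into a few patterns of Oct1 peaks over the stages. Oct1 peaks were listed at all 3 stages for 13 members (28.3%, against 11.2% of all genes): Ctnnb1, Dvl1, Fzd2, Gsk3b, Kremen1, Lgr4, Lrp5, Nkd1, Rnf43, Tcf7, Tcf7l1, Tcf7l2 and Wnt3. All of these but Lgr4 also had an Oct4 peak, so 12 members (26.1%, against 9.18%) were in all 4 lists. In ESCs, 21 members (45.7%, against 28.9%) held both factors. Peaks of Oct1 in ESCs and at neither later stage were found at 7 members (15.2%, against 12.7%), which were Lef1, Lgr5, Lgr6, Sfrp1, Sfrp5, Sp5 and Wnt8a. Peaks at both later stages and not in ESCs were found at 6 (13.0%, against 9.34%), namely Apc, Axin1, Fzd10, Fzd5, Sfrp2 and Znrf3. A further 6 had one at day 6 alone (13.0%, against 12.6%): Dvl2, Fzd4, Fzd7, Lrp6, Wnt11 and Wnt5b.

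The rarer patterns stayed near the background. Axin2, Dvl3, Fzd3 and Fzd8 were listed for Oct1 in ESCs and again at day 6, skipping day 3 (8.70%, against 8.32%). Wnt3a alone had one in ESCs and at day 3 but not at day 6 (2.17%, against 2.99%), and no member had one at day 3 alone (1.05% of all genes). Oct4 without Oct1 at any stage was found at Fzd6, Fzd9, Rspo1 and Rspo4 (8.70%, against 5.25%). A peak absent from a list may have scored under that list's limit, which is not given, so these patterns describe the lists.

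A gene can be in several lists through different sites. Of the 81 Oct1 peaks at members in ESCs, 46 (56.8%) overlapped an Oct4 peak by at least 1 bp, against 60.4% of such peaks at all genes. They met 43.4% of the 106 Oct4 peaks at members, against 45.1%. The sharing per peak was thus slightly under that of all genes, and a count by gene also rises with the number of peaks. By gene, 19 members had such a site (41.3%, against 24.9% of all genes). An ESC Oct1 peak lay over a day 3 peak in 7 members (15.2%, against 7.60%) and over a day 6 peak in 4 (8.70%, against 6.64%), and by peak the shares were 8.64% and 6.17%, against 9.44% and 7.71%. With every list shortened to its 4867 highest peaks, 5 of 17 ESC Oct1 peaks at members overlapped Oct4 and 5 of 17 overlapped day 3 (29.4% each). A day 3 peak lay over a day 6 peak in 14 members (30.4%, against 18.4%), and by peak in 58.3%, against 65.4%. Lgr4 and Tcf7l2 were the 2 members (4.35%, against 3.72%) with an Oct1 peak over the same site at all 3 stages, and in both it was the promoter.

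**Figure D3:**
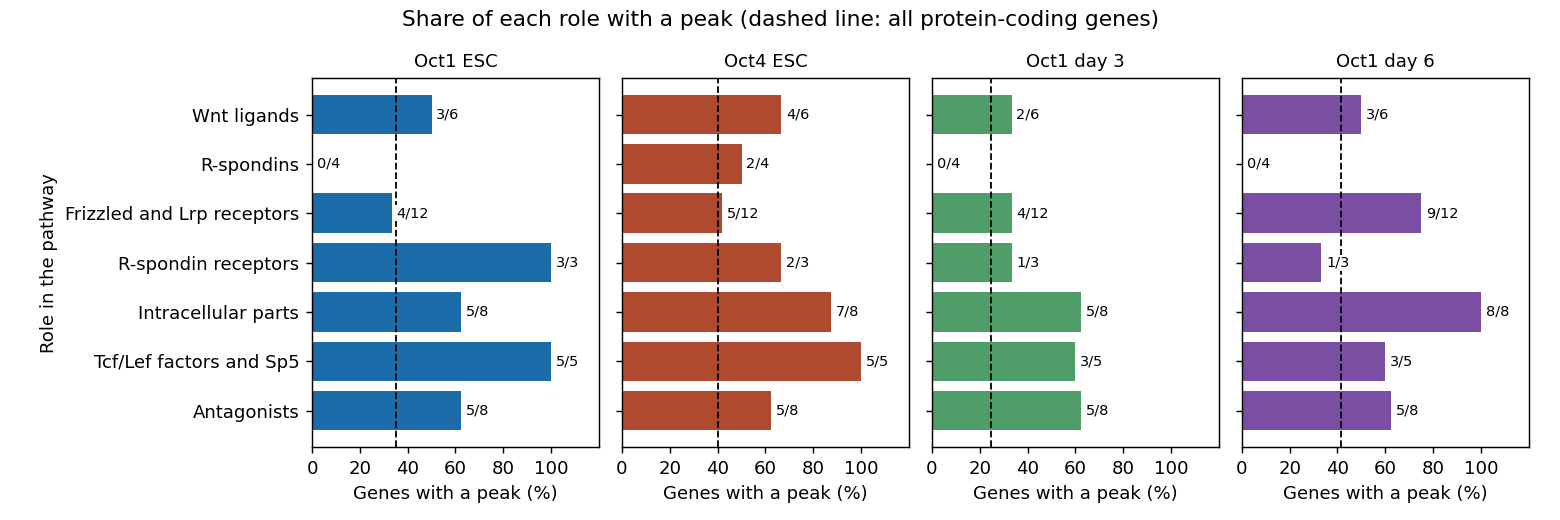
Share of genes with a peak (x axis, percent) for each role in the pathway (y axis), one panel for each list. The dashed line is the share over all protein-coding genes; all 8 intracellular parts have a day 6 peak, and the R-spondin bar is 0 in each Oct1 panel.

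None of the 4 R-spondin genes had an Oct1 peak within 10 kb at any stage (35.2%, 24.6% and 41.5% of all genes in ESCs, at day 3 and at day 6), and Rspo1 and Rspo4 had 3 Oct4 peaks between them in ESCs. Around Rspo3, whose protein is the one added to the medium, the nearest Oct1 peak was 368 kb from the gene in ESCs, 306 kb at day 3 and 90.7 kb at day 6. The nearest Oct1 peak in ESCs lay 12.4 kb from Rspo1 and 23.7 kb from Rspo4, outside the window, and 725 kb from Rspo2. All 3 Lgr genes, which encode the R-spondin receptors, had an Oct1 peak in ESCs. At each later stage 1 of 3 (33.3%) did, Lgr4, which is near the share of all genes. Oct4 peaks were found at 2 of the 3 Lgr genes and 2 of the 4 R-spondin genes (40.2% of all genes). Groups of 3 and 4 genes are too small to set apart from these shares.

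Lgr4 had 1 Oct1 peak per stage and no Oct4 peak. At its promoter the ESC peak (chr2:109917281-109917920) scored 2389, rank 131 of 17709, which is percentile 99.3. The day 3 peak at this site scored 1579, rank 137 of 4867 and percentile 97.2. The day 6 peak scored 778, rank 2446 of 7758 and percentile 68.4. The site was thus near the top of the first 2 Oct1 lists and in the upper part of the third, and the octamer printed above lies inside all 3 peaks. Lgr5 and Lgr6 had Oct1 peaks in ESCs (2 and 4), none of them within 1 kb of the gene's end, and no later peak.

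Among the 6 Wnt ligand genes, Wnt3 and Wnt3a, both known for their part in early mesoderm, were the 2 with Oct1 peaks in ESCs and again at a later stage. Wnt3 held 8 Oct1 peaks and 11 Oct4 peaks in ESCs, numbers reached by 0.905% and 0.832% of all genes. Their scores were modest, with highest values of 200 (percentile 78.7) for Oct1 and 204 (percentile 77.7) for Oct4. Later, Wnt3 had 3 Oct1 peaks at day 3 and 1 at day 6, with highest scores of 81 (percentile 16.6) and 91 (percentile 6.32), near the bottom of those lists. Of the 8 ESC Oct1 peaks, 4 have Wnt9b and 1 has Nsf as nearest gene, and these include every one outside the body of Wnt3, so 3 are nearest to Wnt3 itself. Of the 11 Oct4 peaks, 4 are nearest to Wnt9b, 1 to Nsf and 6 to Wnt3. Of the 3 day 3 Oct1 peaks, 1 is nearest to Wnt9b and 2 to Wnt3.

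Wnt3a had its highest peaks beyond the far end of the gene. The Oct4 peak there (chr11:59243701-59244380) scored 510, rank 263 of 22817 and percentile 98.8. The Oct1 peak in ESCs over the same site (chr11:59243791-59244320) scored 344, percentile 91.2. At day 3 the single Oct1 peak was at another site with a score of 58 (percentile 6.57), and none was listed at day 6. Wnt3 and Wnt3a thus shared a pattern of ESC peaks with low or no later ones. Wnt5b had Oct4 peaks of score 280 (percentile 91.0) in ESCs, 1 of them 87 bp from an end of Gm52875, its nearest gene. The day 6 Oct1 peak of Wnt5b, of score 281 (percentile 27.8), lay 208 bp from an end of Fbxl14. Wnt11 had 4 Oct4 peaks in ESCs, the highest at percentile 67.3, and 1 Oct1 peak at day 6, while Wnt8a had 1 Oct1 peak, in ESCs. Wnt5a had no peak, its nearest ESC Oct1 peak being 14.7 kb from the gene.

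The 12 Frizzled and Lrp genes had Oct1 peaks in 4 cases in ESCs (33.3%, against 35.2% of all genes), 4 at day 3 (33.3%, against 24.6%) and 9 at day 6 (75.0%, against 41.5%), and Oct4 peaks in 5 (41.7%, against 40.2%). The share in ESCs was thus near that of all genes. Fzd5, a Frizzled receptor, had none in ESCs and then a peak on its promoter at both later stages. The day 3 peak (chr1:64737471-64738110) scored 688, rank 413 and percentile 91.5. The day 6 peak (chr1:64737311-64738180) scored 2611, rank 134 and percentile 98.3. Fzd8 had the reverse order of lists: its Oct1 peak in ESCs, 736 bp from the gene's end, scored 1355 (rank 243, percentile 98.6), and the day 6 peak, at another site, scored 55 (percentile 1.19). So these 2 receptors of the same family were near the top of different Oct1 lists.

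Fzd2 had a distant site, with a midpoint 8801 bp from the gene in ESCs, where Oct1 scored 125 (percentile 59.2) and Oct4 119 (percentile 36.1). At this site the day 3 Oct1 peak scored 462 (percentile 83.8). The day 6 peak of Fzd2 lay elsewhere, 104 bp from the gene's end, with a score of 1084 (percentile 81.6). Fzd10 had Oct1 peaks of score 353 at day 3 (percentile 75.2) and 585 at day 6 (percentile 56.0), overlapping near its start, and its Oct4 peaks reached 204 (percentile 77.7). Lrp5, the co-receptor, had 5 Oct1 and 5 Oct4 peaks in ESCs, none above percentile 78.2. Its day 3 Oct1 peak, inside the gene and 37365 bp from the nearer end, scored 666 (rank 442, percentile 90.9), and its day 6 peaks were at other sites. These scored 190 and 134, both overlapped ESC Oct1 peaks, and the first lay 168 bp from an end of Ppp6r3. The promoter peaks of Fzd5 and Fzd10 and the internal one of Lrp5 show that the day 3 sites of receptors were not of 1 kind.

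All 8 intracellular parts had an Oct1 peak at day 6 (41.5% of all genes). In ESCs 5 did (62.5%, against 35.2%), at day 3 likewise 5 (against 24.6%), and 7 had an Oct4 peak (87.5%, against 40.2%). Dvl1, a Dishevelled protein gene, carried the highest-ranking Oct4 peak of any member. It lay just past the far end of Dvl1 (chr4:155859081-155859850), 162 bp from that end and 197 bp from an end of the taste receptor gene Tas1r3, and scored 1725, rank 26 of 22817 and percentile 99.9. Over the same site the ESC Oct1 peak scored 1237 (rank 273, percentile 98.5) and the day 3 peak scored 703 (rank 394, percentile 91.9). No day 6 peak was listed there. All ESC peaks counted for Dvl1, and the day 3 peak at this site, have Tas1r3 as nearest gene. At its own start Dvl1 had peaks of score 332 at day 3 (percentile 72.9) and 1832 at day 6 (rank 378, percentile 95.1). The 2 ends of Dvl1 were thus listed at different stages, with day 3 holding both.

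Dvl2 had 4 Oct1 peaks at day 6, a number reached by 0.352% of all genes, and none in ESCs or at day 3. They reached scores of 1617 (percentile 93.1) and, at its own start, 1464 (rank 716, percentile 90.8). The peak at the start is the 1 of the 4 that is nearest to Dvl2, since those of 1617 and 1122 are nearest to Phf23 and that of 175 to Acadvl. The nearest Oct1 peaks outside the window stood 11.2 kb away in ESCs and 11.1 kb away at day 3, the latter with a score of 453. The day 6 peak of Dvl3 (score 1245, percentile 86.3) likewise sat 75 bp from an end of a neighbour, Ap2m1.

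Ctnnb1, which encodes beta-catenin, had no ESC peak near its start. Its ESC peaks lay past the other end toward Ulk4, with scores of 125 and 50 for Oct1 and 78 and 60 for Oct4. All of them have Ulk4 as nearest gene, and that of 125 lay 374 bp from an end of Ulk4. The ESC counts of Ctnnb1 thus rest on sites nearer to another gene. At the start of Ctnnb1, the Oct1 peak scored 267 at day 3 (percentile 64.1) and 1051 at day 6 (percentile 80.5). Gsk3b, the kinase of the destruction complex, also had a start peak at the later stages alone. Oct1 and Oct4 shared a site inside Gsk3b in ESCs (scores 53 and 110), and its start had peaks of 132 at day 3 (percentile 34.7) and 333 at day 6 (percentile 33.1).

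Axin1 and Axin2, the scaffolds of the complex, differed from each other. Axin1 had no Oct1 peak in ESCs, and its site inside the gene scored 140 at day 3 (percentile 36.5) and 1306 at day 6 (rank 946, percentile 87.8). At both stages this site overlapped the RefSeq promoter window of Gm46600. Axin2, a well-known target of Wnt signalling, had 2 Oct1 and 6 Oct4 peaks in ESCs, up to scores of 144 (percentile 66.1) and 219 (percentile 82.3). The Oct1 peaks and the highest Oct4 peak lay toward the far end of the gene, while the Oct4 peaks ranged from 6756 to 29941 bp past the listed start. Its day 6 peak, 516 bp from the listed start, scored 836 (percentile 71.5), and no day 3 peak was listed.

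The Tcf/Lef genes and Sp5 were all in both ESC lists, and several are long genes with many peaks. All 5 had both an Oct1 and an Oct4 peak in ESCs, with 30 Oct1 and 27 Oct4 peaks in all (28.9% of all genes hold both). The shorter later lists held 3 Oct1 peaks at day 3 and 5 at day 6, each on 3 of the 5 genes (24.6% and 41.5% of all genes). Tcf7l1, a repressor of Wnt targets in ESCs, had 14 Oct1 peaks, a number reached by 50 genes (0.228%), and 10 Oct4 peaks, reached by 1.05%. With a length of 162675 bp, Tcf7l1 is also a long gene. Its Oct4 peak at chr6:72787091-72787650, 1675 bp inside the start, scored 558 (rank 208, percentile 99.1), and its highest Oct1 peak, at chr6:72655271-72655890, scored 384 (percentile 92.7). Later peaks were at single sites: score 173 inside the gene at day 3 (percentile 45.4), 551 at the start at day 6 (percentile 53.6), and 1059 at day 6 beyond the far end, 180 bp from Tgoln1.

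**Figure D4:**
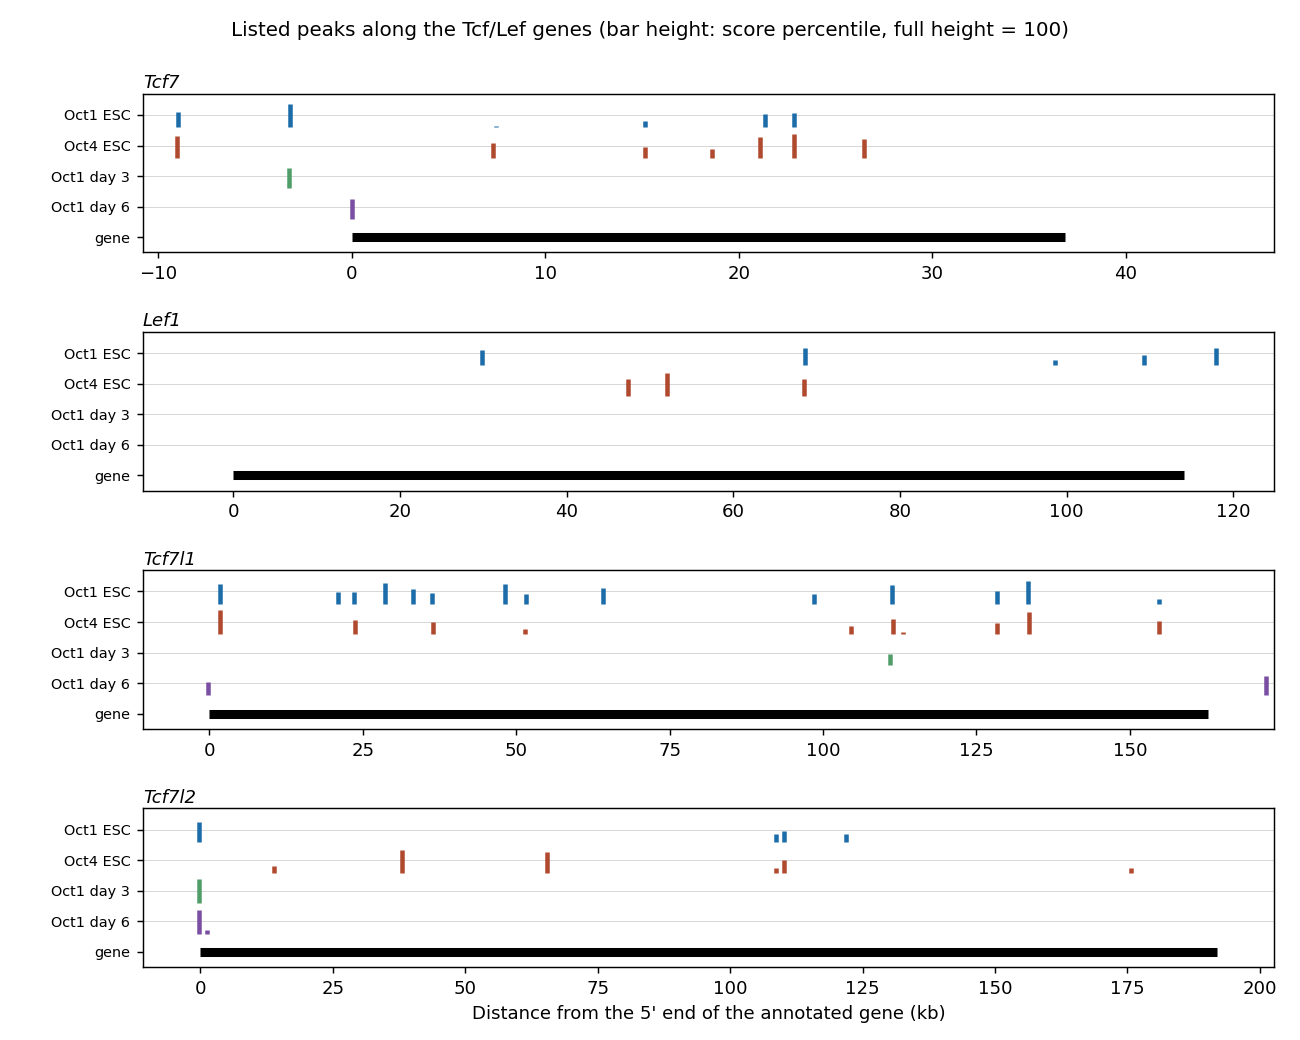
Listed peaks along Tcf7, Lef1, Tcf7l1 and Tcf7l2 (x axis, kb from the gene's upstream end), one row for each list, with the gene drawn as a black bar. Bar height is the score percentile within the list; the ESC rows hold peaks spread over the genes, the later rows hold few, and Lef1 has none at day 3 or day 6.

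Tcf7l2 had a promoter peak of Oct1 at each stage and none of Oct4 there. The ESC peak (chr19:55741401-55741920) scored 229, rank 2949 and percentile 83.0. The day 3 peak (chr19:55741311-55741950) scored 1683, rank 127 and percentile 97.4. The day 6 peak (chr19:55741321-55741930) scored 2364, rank 190 and percentile 97.6. The promoter of Tcf7l2 was thus within the highest 10% of the 2 later lists and outside it in ESCs, and its window printed above has no octamer with up to 1 substitution. The Oct4 peaks of Tcf7l2 were inside the gene, up to a score of 293 (percentile 92.3).

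Tcf7 had an upstream Oct1 site shared by ESCs and day 3. The ESC peak (chr11:52286241-52286890) scored 615, rank 651 and percentile 96.3, and the day 3 peak over it scored 464, rank 781 and percentile 83.9. At day 6 the listed peak was at the upstream end of the gene, 23 bp from it, with a score of 1119 (percentile 82.8). Oct4 reached 371 (percentile 96.5) at another site, inside the gene. Lef1, which lacks later peaks, had 5 Oct1 peaks in ESCs up to 164 (percentile 71.6) and 3 Oct4 peaks up to 293 (percentile 92.3).

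The antagonist genes had Oct1 peaks in 5 of 8 cases at each stage, (62.5%, against 35.2%, 24.6% and 41.5% of all genes), but not the same 5. Sfrp1 and Sfrp5 had them in ESCs, Sfrp2 and Znrf3 at both later stages, and Kremen1, Nkd1 and Rnf43 at every stage. Kremen1, a Dickkopf receptor, had the highest-ranking day 6 peak of any member. At the gene's end the day 3 peak (chr11:5261431-5262000) scored 1103 (rank 204, percentile 95.8) and the day 6 peak (chr11:5261331-5262080) scored 3419 (rank 65, percentile 99.2). The ESC peaks of Kremen1, up to 130 for Oct1 (percentile 60.1) and 220 for Oct4 (percentile 82.3), were at other sites within the gene.

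Znrf3 and Rnf43, the ligases that R-spondins act on, both had high-ranking peaks at day 6. At an end of Znrf3 the day 3 peak (chr11:5444691-5445340) scored 684 (rank 420, percentile 91.4), and the day 6 peak (chr11:5444231-5445460) scored 1990 (rank 301, percentile 96.1). In ESCs no peak was within 10 kb of Znrf3, although an Oct1 peak of score 450 (percentile 94.2) stood 12.2 kb away, just outside the window. For Rnf43 the day 6 peak scored 2070 (rank 267, percentile 96.6) and the day 3 peak 233 (percentile 57.9). That site lies past the far end of Rnf43 and 76 bp from an end of Supt4a at day 6, so the Rnf43 count at the later stages rests on a site nearer to another gene. Inside Rnf43, ESC peaks reached 265 for Oct1 (percentile 86.4) and 324 for Oct4 (percentile 94.6).

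Nkd1, an inhibitor of Dishevelled, had a later site close to its upstream end. The site lay over the RefSeq promoter window of Gm35162, not that of Nkd1, and scored 455 at day 3 (percentile 83.3) and 1303 at day 6 (percentile 87.8). Its ESC peaks, 6 of Oct1 and 7 of Oct4, lay inside the annotated gene, up to 122 (percentile 57.5) and 229 (percentile 83.8). That Oct4 peak of score 229 overlapped the RefSeq promoter window of Nkd1, with its midpoint at -33 bp from the listed start. Sfrp1, a secreted Wnt-binding protein gene, had an Oct4 peak of score 405 (rank 567, percentile 97.4) and an Oct1 peak of 72 (percentile 25.7) at another site. Sfrp2, named here for its octamer after its values were seen, had promoter peaks of score 435 at day 3 (percentile 81.8) and 260 at day 6 (percentile 25.7). Dkk1, the Dickkopf antagonist, had no peak, and the nearest in any list was 417 kb away.

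The other 16 members with a peak met neither limit for printing scores one by one. They were Apc, Fzd3, Fzd4, Fzd6, Fzd7, Fzd9, Lgr5, Lgr6, Lrp6, Rspo1, Rspo4, Sfrp2, Sfrp5, Sp5, Wnt11 and Wnt8a. Their Oct1 scores ran from 57 to 209 in ESCs (6 genes, percentiles 12.8 to 80.5) and their Oct4 scores from 47 to 233 (9 genes, percentiles 0.907 to 84.7). At day 3 Apc and Sfrp2 had scores of 228 and 435, and at day 6 the scores of 7 genes ran from 105 to 617 (percentiles 8.08 to 58.2). None of them had a peak in the highest 10% of a list.

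Some of the counted peaks lie at a neighbouring gene. Of the 36 day 6 peaks at members, 19 had a midpoint within 1 kb of the member's own end alone, 2 were also within 1 kb of another gene's end, 8 were within 1 kb of another gene's end alone, and 7 were near neither. At day 3 the corresponding numbers for 24 peaks were 12, 1, 1 and 10. In ESCs nearly all member peaks were near neither, 73 of 81 for Oct1 and 103 of 106 for Oct4. A peak near neither end can still lie at a listed start. At day 6 those of Axin2 and Wnt11 overlapped the member's own RefSeq promoter window. One of Dvl2 overlapped a window of Phf23, and that of Axin1 a window of Gm46600. Peaks near another gene's end include those at Rnf43, Dvl3, Wnt5b and the second site of Dvl1, and assignment by distance does not show which gene a site acts on.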

How the data were processed

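ChIP-seq was made from formaldehyde-fixed chromatin of 7 samples, 1 library per group, sequenced as read pairs of 50 bp per the labels' protocols. Novoalign 3.8.2 and the mm10 build (GRCm38) are named per the submitters' processing notes. The peak caller, its threshold and the use of the inputs are not given in the sources used here. Each deposited list gives position and a whole-number score made by the authors, with no unit, so scores were used as ranks within a list. The labels' protocols state 100 M read pairs, the same for every sample, and the lists themselves give no depth per library.

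Genes came from the RefSeq GRCm38.p6 table, which has no exons or introns, so positions are given against gene ends only. All 46 symbols matched, and 30 had promoter windows. Against these gene ends, 71.7% of day 6 peaks had a midpoint within 1 kb, and 8.31% and 8.17% did when shifted by 10000 bp either way. Peaks were assigned to the gene body and 10 kb on each side, shared sites needed 1 bp, and the assignment was tested on simulated data and checked with bedtools 2.31.1, using Python 3.11.15 and pandas 2.3.3. Scores were printed for the 25 members with a peak in the highest 10% of a list or with peaks in at least 3 lists, and Sfrp2 was added. Alternatives were the window, the score limit, list length and overlap, and, added after the data were seen, classes of gene length, leaving out chromosome 11, and an octamer with 1 substitution. The members and lists were chosen with earlier results of these data known. No test was run.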

Additional observations from a re-analysis of the deposited data

How the results depend on the processing

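Of 48 recomputed values for 8 counts, 35 stayed within 1.5 times the value reported and 13 moved further, leaving out the chromosome 11 alternative. With a 50 kb window the members' shared sites numbered 28 (Oct1, day 3 with day 6), 17 (ESC with day 3), 14 (ESC with day 6) and 83 (Oct1 with Oct4 in ESCs), by construction since more peaks are counted; with a 1 kb window 4 were shared by ESCs and day 3. With the 50% of peaks that score higher, 2 sites were shared by ESCs and day 6 and 18 by Oct1 and Oct4, and 19 members had a day 6 peak (25.0% of all genes). With every list shortened to 4867 peaks, these were 2 and 5 (of 17 ESC Oct1 peaks, as many as overlapped day 3), and members with an ESC peak numbered 11 for Oct1 (16.2% of all genes) and 14 for Oct4 (14.7%). Requiring each peak to cover 50% of the other left 3 sites shared by ESCs and day 6. Without chromosome 11, added after the data were seen, 13 members had a day 3 peak, of 37, and the counts of the other 3 lists stayed within 1.5 times. The cause was not tested where a change does not follow from counting fewer or more peaks. No paired analysis was possible because each group is 1 library, and no replicate could be left out.

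Sites under a list's unknown limit are not seen, lists of different length show no gain or loss of binding, and peaks in the inputs were not examined here.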

Other observations

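Among the 59 other Wnt pathway genes, a peak in the highest 10% of scores was found at 3 for Oct1 in ESCs (5.08%, against 7.31% of all genes), 8 for Oct4 (13.6%, against 7.91%), 2 at day 3 (3.39%, against 3.04%) and 5 at day 6 (8.47%, against 5.56%). Of 8 planar polarity genes, 7 had an Oct1 peak in ESCs (35.2% of all genes), 8 an Oct4 peak (40.2%), 4 an Oct1 peak at day 3 (24.6%) and 6 at day 6 (41.5%). For 9 beta-catenin co-factors these counts were 5, 6, 5 and 8, for 9 other intracellular parts 4, 5, 3 and 8, and for 13 other antagonists 5, 8, 2 and 2. For 4 other receptors they were 2, 3, 2 and 1, and for 3 genes of ligand secretion 2, 2, 0 and 2. Celsr3, a planar polarity cadherin gene, had an Oct4 peak of score 1033 (rank 50, percentile 99.8). Ptk7, a co-receptor gene, had an Oct1 peak of 1507 in ESCs (rank 221, percentile 98.8) and of 782 at day 3 (percentile 93.2). Bcl9, a beta-catenin co-factor, had Oct1 peaks of 838 at day 3 (percentile 93.8) and 3318 at day 6 (rank 71, percentile 99.1). Among 13 other Wnt ligand genes, 8 had an Oct1 peak in ESCs, 7 an Oct4 peak, and 4 and 5 an Oct1 peak at day 3 and day 6.

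The place of the octamer in Lgr4 and Sfrp2, 49 and 47 bases before the start, was set against all promoters after it was seen. Of the 570 windows with an octamer, 60 (10.5%) had one from 60 to 40 bases before the start. Among octamer windows under (overlapping) Oct1 peaks this was 14 of 97 in ESCs (14.4%), 18 of 115 at day 3 (15.7%) and 14 of 101 at day 6 (13.9%), and under Oct4 peaks 2 of 29 (6.90%). The octamer itself was in 6.19% of windows under Oct1 peaks in ESCs, 3.58% at day 3, 1.44% at day 6 and 2.39% under Oct4 peaks, against 1.74% of all windows. These shares are descriptions of the lists, without a test.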
